A study of Mus musculus with 16 samples.

Results

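This account covers 35 genes of the mouse unfolded protein response and of the amino acid response, chosen by symbol and read in 4TO7 cells on 16 two-colour Agilent arrays. They are 14 chaperones and folding enzymes of the endoplasmic reticulum (ER), 7 genes of ER-associated degradation, 5 sensors and transcription factors, and 9 targets of the transcription factor ATF4. A probe of each gene was searched by current symbol, older symbol or accession, and the brightest detected probe stood for the gene. All 35 were among the 18993 genes tested. Of these 35, 34 were well above background on all 16 arrays, and Derl3 was on 11.

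4TO7 is a mouse mammary carcinoma line, here kept in DMEM with 10% serum. Cells were infected with pMSCV retroviral vectors, and every group, the controls included, carried a vector. There were 8 groups of 2 arrays, called repeats A and B. Cluster 1, Cluster 2 and Clusters 1+2 overexpressed clusters of the miR-200 family, microRNAs known for holding cells in an epithelial state. CDH1 overexpressed E-cadherin, the adhesion protein of epithelial cells. Each had its own control: the Hygro vector for Cluster 2, both the Hygro and the Puro vector for Clusters 1+2, and 2 separate Puro groups, 1 for Cluster 1 and 1 for CDH1. The labels used here do not say which microRNAs a cluster held, or whether repeats A and B came from separate infections. If 1 infected pool gave both, the p-values leave out differences between independently made lines.

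Each array set a sample against a universal reference RNA from 11 mouse cell lines, so a level below is log2 of sample over reference for 1 probe. The sample carried Cy5 in Cluster 1, CDH1 and their Puro controls, and Cy3 in the other groups. Slide identifiers put Cluster 1 with its control on slide 4 and CDH1 with its control on slide 3, so the Puro controls were on separate slides. Among the Cy3 groups, repeat A lay on slide 1 and repeat B on slide 2. Differences are log2 fold changes with their standard error (SE) from 1 limma fit. A gene was called higher (rose) or lower (fell) at an adjusted p under 0.05. With bulk RNA, fewer cells making a transcript and less of it per cell cannot be told apart.

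Proteins that fail to fold in the ER are sensed by IRE1 (Ern1), PERK (Eif2ak3) and ATF6. IRE1 splices the mRNA of Xbp1, ATF6 is cut to release a transcription factor, and both raise chaperones and degradation genes. PERK phosphorylates eIF2alpha, which slows translation and favours that of Atf4; the kinase GCN2 does the same when amino acids run short. ATF4 then raises genes of amino acid synthesis and stress genes such as Ddit3 (CHOP) and Trib3. ER chaperones and ATF4 targets are thus taken here as read-outs of mainly different arms, not of fully separate ones. A transcript level does not show splicing, cleavage or phosphorylation, and these arrays measured none of them.

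The arms use different promoter elements, so the letters were searched first, in RefSeq windows of build GRCm38.p6 running from 250 bases before to 50 after each annotated start. A window was given for 31 of the 35 members; Derl1, Atf6, Hyou1 and Manf had none. Both strands were searched. The ER stress response element (ERSE, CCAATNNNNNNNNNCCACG) stood in the windows of 37 of 27025 genes (0.137%), and in 7 of 12 chaperones. It was also found in Derl3 and Syvn1, 2 of 6 degradation genes, and in 0 of 9 ATF4 targets. ERSE-II (ATTGGNCCACG), which shares the letters CCACG with ERSE, was found in 0.0444% of genes and in Dnajb11 and Herpud1. The ATF4 element (CARE, TGATGNAA) was found in 4.51% of genes, in Asns, Chac1 and Trib3 among the 9 ATF4 targets, and in Herpud1. Another motif, UPRE (TGACGTGG), was found in 0.714% of genes and 0 members. A match is a description of letters, not a bound site.

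The chaperone stretches below, read along the gene's own strand, are shown because Hspa5, Pdia6, Creld2 and Canx fell in CDH1 while Hsp90b1, Calr and Dnajc3 with the same element were not called there. Capitals mark ERSE, which reads as its reverse complement in Calr, in Creld2 and in the second match of Hsp90b1. The positions are chr2:34772013-34772055 (plus strand) for Hspa5, chr12:17266479-17266521 (plus) for Pdia6, chr15:88819508-88819550 (plus) for Creld2, chr11:50325788-50325830 (minus) for Canx, chr10:86705521-86705668 (minus) for Hsp90b1, chr8:84847063-84847105 (minus) for Calr and chr14:118937815-118937857 (plus) for Dnajc3. All end before the annotated start.
Hspa5: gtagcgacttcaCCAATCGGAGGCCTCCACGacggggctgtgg
Pdia6: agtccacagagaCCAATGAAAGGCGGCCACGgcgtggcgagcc
Creld2: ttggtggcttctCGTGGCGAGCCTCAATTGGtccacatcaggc
Canx: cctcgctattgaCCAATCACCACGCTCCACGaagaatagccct
Hsp90b1: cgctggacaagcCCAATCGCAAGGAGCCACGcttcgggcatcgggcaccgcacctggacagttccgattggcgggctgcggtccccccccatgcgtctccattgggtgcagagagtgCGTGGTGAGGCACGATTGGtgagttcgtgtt
Calr: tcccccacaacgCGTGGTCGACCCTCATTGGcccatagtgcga
Dnajc3: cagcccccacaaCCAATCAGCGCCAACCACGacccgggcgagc

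Asns and Chac1 carry CARE before the start and were the called ATF4 targets with the largest rises in Clusters 1+2. Herpud1 is the member that holds both CARE and ERSE-II. Capitals mark the motifs, and CARE reads as its reverse complement in Chac1 and Herpud1. The positions are chr6:7693213-7693244 (minus) for Asns, chr2:119351037-119351068 (plus) for Chac1 and chr8:94386305-94386399 (plus) for Herpud1.
Asns: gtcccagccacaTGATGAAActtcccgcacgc
Chac1: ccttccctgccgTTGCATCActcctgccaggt
Herpud1: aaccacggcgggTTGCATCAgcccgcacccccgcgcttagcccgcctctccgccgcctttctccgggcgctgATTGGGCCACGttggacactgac

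**Figure D1:**
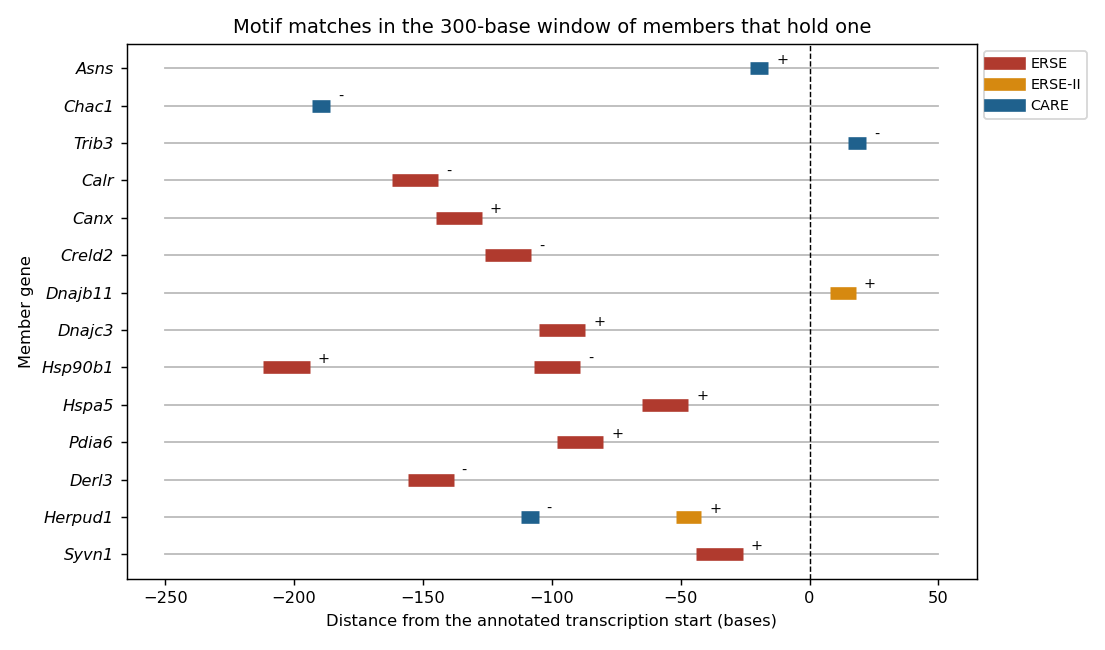
Positions of ERSE, ERSE-II and CARE matches (coloured boxes) in the 14 member windows that hold one, as distance in bases from the annotated start (dashed line), with the strand of the match. The ERSE matches lie before the start in all 9 members that hold one, and the CARE match of Trib3 and the ERSE-II match of Dnajb11 lie after it.

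Facts of the whole series bear on all values. The correlation between the repeats of a group, taken over genes (no independent replicates), was 0.937 to 0.98. Repeat B of the Puro vector for CDH1 had 31.2% of spots well above background, against 46.4% to 69.3% on the other 15 arrays. The epithelial markers Krt8 and Krt18 were detected on all 16 arrays, and the leukocyte marker Ptprc on 6, the endothelial marker Cdh5 on 4 and the adipocyte marker Adipoq on 4. Fibroblast markers such as Col1a1 and Dcn were detected on all 16. Cdh1, the E-cadherin gene, was higher by 1.21 in Cluster 1, 1.93 in Cluster 2, 2.86 in Clusters 1+2 and 0.61 in CDH1 against their own vectors. Epcam was higher by 1.40, 1.67 and 3.23 in the first 3. The members' changes in those 3 groups thus come with a shift of epithelial markers, whose part in them was not tested. For CDH1 the value given is that of Cdh1, the gene of the overexpressed protein. Whether its probe reads the transcript of the vector, that of the cell's own gene or both is not known.

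With Cluster 1, 5 of 14 chaperones, 3 of 7 degradation genes, 3 of 5 sensors and factors and 1 of 9 ATF4 targets, Trib3, were called higher. Against the Puro vector for Cluster 1, 12 of 35 members rose (34.3%) and limma called 0 lower, where 8.24% of all genes were called, 4.84% higher and 3.40% lower. At an unadjusted p under 0.05, 17 members were higher and 1 lower. The arrays of the groups did not overlap in 26 of the 34 members with all values, against 51.2% of all genes. The median difference was 0.18 over the members and 0.00 over all genes. The values against the other Puro vector are given further on.

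Among the chaperones 5 of 14 rose with Cluster 1. Sdf2l1, a partner of the ER chaperone complex, stood at -0.57 and -0.45 in the Puro arrays and 0.00 and 0.16 in the Cluster 1 arrays, a difference of 0.60 ± 0.083, adjusted p = 0.000799. Creld2, a small ER protein induced by ER stress, stood at -0.20 and -0.17 and at 0.25 and 0.26 (0.44 ± 0.070, adjusted p = 0.00183). Both genes were higher on each Cluster 1 array than on each control array. Dnajb11, a co-chaperone of BiP, went from 0.50 and 0.42 to 0.87 and 0.90 (0.42 ± 0.075, adjusted p = 0.00362). Pdia6, a disulfide isomerase, went from 0.52 and 0.44 to 0.87 and 0.89 (0.40 ± 0.071, adjusted p = 0.00394). Manf, a secreted ER stress factor, went from 0.76 and 0.86 to 1.10 and 1.02 (0.25 ± 0.068, adjusted p = 0.0383). For none of these 3 did the arrays of the groups overlap, and Manf, with the smallest difference of them, kept its call in 5 of 13 alternatives. Hspa5, which encodes BiP, the main ER chaperone, stood at 0.66 and 0.59 in the controls and 0.92 and 0.91 with Cluster 1, 0.29 ± 0.11, adjusted p = 0.153, and was not called.

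Of the degradation genes Edem1, Derl1 and Derl2 rose, 3 of 7. Edem1, which hands misfolded glycoproteins to degradation, stood at -0.78 and -0.86 in the Puro vector and -0.26 and -0.38 in Cluster 1 (0.50 ± 0.070, adjusted p = 0.00123). Derl1, part of the channel that moves them out of the ER, stood at -0.20 and -0.21 and 0.20 and 0.15 (0.38 ± 0.067, adjusted p = 0.00353). Its relative Derl2 stood at 0.13 and 0.30 and 0.62 and 0.50 (0.34 ± 0.081, adjusted p = 0.0208). The groups did not overlap in any of the 3. The 4 others, Herpud1, Derl3, Sel1l and Syvn1, differed by -0.06 to 0.16.

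Of the sensors and factors Xbp1, Eif2ak3 and Atf6 rose, 3 of 5. Xbp1 stood at -0.63 and -0.88 in the vector and -0.19 and -0.39 in Cluster 1 (0.47 ± 0.12, adjusted p = 0.0294). Eif2ak3, which encodes PERK, stood at -0.60 and -0.39 and -0.09 and 0.00 (0.45 ± 0.10, adjusted p = 0.0188). Atf6 stood at -1.09 and -1.20 and -0.86 and -0.88 (0.27 ± 0.077, adjusted p = 0.0494), at the edge of the threshold and kept in 1 of 13 alternatives. The vector arrays of Xbp1 and Eif2ak3 differed from each other by more than those of Atf6, and the Cluster 1 arrays lay above them in all 3.

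Trib3 was the ATF4 target that rose, and it showed the largest change of any member with Cluster 1. A pseudokinase that restrains AKT and ATF4 itself, it stood at -1.0 and -1.0 in the Puro arrays and -0.27 and -0.35 in Cluster 1, 0.69 ± 0.063, adjusted p = 3.11e-05, 1.61-fold. The other 8 targets ran from -0.17 for Sesn2 to 0.18 for Psat1, and none was called. The median of the 9 was -0.01, against 0.27 for the chaperones. With the marked spots kept in the background fit the call was left for Sdf2l1 alone, with 1 member called. Without repeat A of Cluster 1, 7 members were called.

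With Cluster 2 alone few members were called, and those were a pair of chaperones. Against the Hygro vector, 2 of 35 members rose and limma called 0 lower, where 2.85% of all genes were called, 1.78% higher and 1.07% lower. At an unadjusted p under 0.05 there were 8 higher and 3 lower. Arrays did not overlap in 21 of 34 members, against 44.2% of all genes. The difference was above 0 for all 14 chaperones, with a median of 0.18 against -0.0021 over all genes, and for 5 of the 9 ATF4 targets, with a median of 0.03.

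Creld2 stood at 0.11 and 0.15 in the Hygro arrays and 0.39 and 0.52 in Cluster 2 (0.33 ± 0.070, adjusted p = 0.0244); within slides the difference was 0.28 on slide 1 and 0.37 on slide 2. Dnajb11 stood at 0.65 and 0.66 and 0.95 and 0.98 (0.31 ± 0.075, adjusted p = 0.0444), and 0.30 on slide 1 and 0.32 on slide 2. The arrays did not overlap for either gene. Hyou1, an ER chaperone of the HSP110 type, lay just outside the threshold at 0.32 ± 0.080, adjusted p = 0.0502, as did Sdf2l1 at 0.33 ± 0.083, adjusted p = 0.0588. The count is not stable in size: with median centring 17 members were called, all higher, where the median of all genes itself moved to 0.14. With the processed signals, offset 10, scaled spread, no filter or marked spots kept, and without either Hygro array or Cluster 2 repeat B, 0 were called. Without Cluster 2 repeat A there was 1, and with the slide as a block 4.

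With both clusters together, 5 of 14 chaperones and 5 of 9 ATF4 targets rose, and most of the other members were not called. Against Hygro and Puro vectors, 11 of 35 members rose and 2 fell (37.1% called), where limma called 24.9% of all genes, 12.1% higher and 12.7% lower. The rises were 31.4% of the members, and arrays did not overlap in 23 of 34 members against 57.8% of all genes. Of the degradation genes 0 of 7 rose by limma and 1 fell, and of the sensors and factors 1 of 5 rose. The groups were on the same slides, so the difference of each called member is also given within slides.

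Asns, which makes asparagine and is a classic ATF4 target, showed the largest change. With both vectors it stood at -1.28 and -1.25, with both clusters at -0.71 and -0.60, 0.61 ± 0.086, adjusted p = 0.000175, 1.53-fold, and 0.57 on slide 1 and 0.65 on slide 2. Chac1, which breaks down glutathione, stood at -0.43 and -0.34 and -0.05 and -0.04 (0.34 ± 0.060, adjusted p = 0.00106; 0.38 on slide 1 and 0.30 on slide 2). The 2 genes of the serine pathway that rose did so by less. Phgdh, its first enzyme, stood at 0.16 and 0.37 and 0.51 and 0.55 (0.27 ± 0.085, adjusted p = 0.0366; 0.35 on slide 1 and 0.18 on slide 2). Psat1, the next enzyme, stood at 0.04 and 0.17 and 0.35 and 0.36 (0.25 ± 0.070, adjusted p = 0.0193; 0.31 on slide 1 and 0.19 on slide 2). Trib3 stood at -0.64 and -0.61 and -0.44 and -0.43, 0.19 ± 0.063, adjusted p = 0.0433, and 0.20 on slide 1 and 0.18 on slide 2, a call kept in 1 of 13 alternatives. Phgdh and Psat1 kept theirs in 6 of 13 each; without repeat A of the Hygro and Puro vectors Phgdh came to 0.16 (adjusted p = 0.254). In all 5 genes both Clusters 1+2 arrays lay above both vector arrays. The stress factor Ddit3 fell: it stood at -0.79 and -0.76 with the vectors and -1.28 and -1.14 with the clusters (-0.43 ± 0.097, adjusted p = 0.00558; -0.48 on slide 1 and -0.37 on slide 2). The class thus held rises and a fall, and Atf4 itself, at -0.45 and -0.35 and -0.12 and -0.12, was not called (0.28 ± 0.10, adjusted p = 0.0719).

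Creld2 and Sdf2l1 led the chaperones again. Creld2 stood at 0.21 and 0.08 with the vectors and 0.71 and 0.71 with Clusters 1+2 (0.56 ± 0.070, adjusted p = 6.52e-05; 0.49 on slide 1 and 0.62 on slide 2). Sdf2l1 stood at 0.58 and 0.67 and 1.18 and 1.18 (0.56 ± 0.083, adjusted p = 0.000289; 0.60 on slide 1 and 0.51 on slide 2). Hyou1 stood at 1.16 and 1.10 and 1.49 and 1.57 (0.40 ± 0.080, adjusted p = 0.00227; 0.33 on slide 1 and 0.47 on slide 2). Both groups were apart in all 3. Dnajb11 stood at 0.75 and 0.69 and 1.04 and 1.08 (0.33 ± 0.075, adjusted p = 0.005; 0.29 on slide 1 and 0.38 on slide 2). Manf stood at 1.12 and 1.19 and 1.42 and 1.36 (0.24 ± 0.068, adjusted p = 0.02; 0.30 on slide 1 and 0.17 on slide 2), a call kept in 6 of 13 alternatives. Hspa5, at 0.85 and 1.04 and 1.08 and 1.32, was not called (0.26 ± 0.11, adjusted p = 0.12); its spot was saturated on 1 array, Cluster 2 repeat A, and its repeats on slide 2 lay above those on slide 1 in all 4 Cy3 groups. Pdia6, at 0.83 and 0.89 and 0.86 and 0.93, was not called either (0.04 ± 0.071, adjusted p = 0.778).

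Atf6 rose, from -0.77 and -0.72 to -0.49 and -0.54 (0.23 ± 0.077, adjusted p = 0.0447; 0.28 on slide 1 and 0.18 on slide 2). Syvn1, the ubiquitin ligase of ER-associated degradation, fell from 0.22 and 0.27 to -0.09 and 0.10 (-0.23 ± 0.073, adjusted p = 0.0337; -0.30 on slide 1 and -0.16 on slide 2), or -0.14 without Clusters 1+2 repeat A. Neither gene overlapped between the groups, but Atf6 kept its call in 2 of 13 alternatives and Syvn1 in 3. Creld2, Sdf2l1, Chac1 and Asns kept theirs in all 13. The count of calls was 7 with the processed signals, 5 with marked spots kept, 8 with median centring and 4 with scaled spread. Without repeat A of the Hygro and Puro vectors it was 8, and without repeat A or B of Clusters 1+2 it was 6 or 8.

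Asns was also the member called for a larger change with Clusters 1+2 than with Cluster 2 alone. The difference between these changes was above 0 in 22 of the 35 members. At an unadjusted p under 0.05 in limma, 4 members were higher and 2 lower. The difference between the changes was 0.48 ± 0.12, adjusted p = 0.0347, in a limma interaction over the 8 Cy3 arrays; with Cluster 2 alone Asns stood at -1.23 and -1.17 in the vector and -1.13 and -1.01 (0.13 ± 0.086, adjusted p = 0.533). Asns was the 1 member called of 35, where 6.24% of all genes were, 2.90% higher and 3.34% lower. The call was lost with the processed signals, offset 10, marked spots kept, no filter or scaled spread. Of the 8 fits that leave out 1 of the Cy3 arrays, the call remained without Cluster 2 repeat B and was lost without each of the other 7. With median centring 5 members were called, all lower, as the median of all genes moved to -0.17. The medians were 0.00 for the chaperones and 0.19 for the ATF4 targets, the latter -0.12 with median centring.

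**Figure D2:**
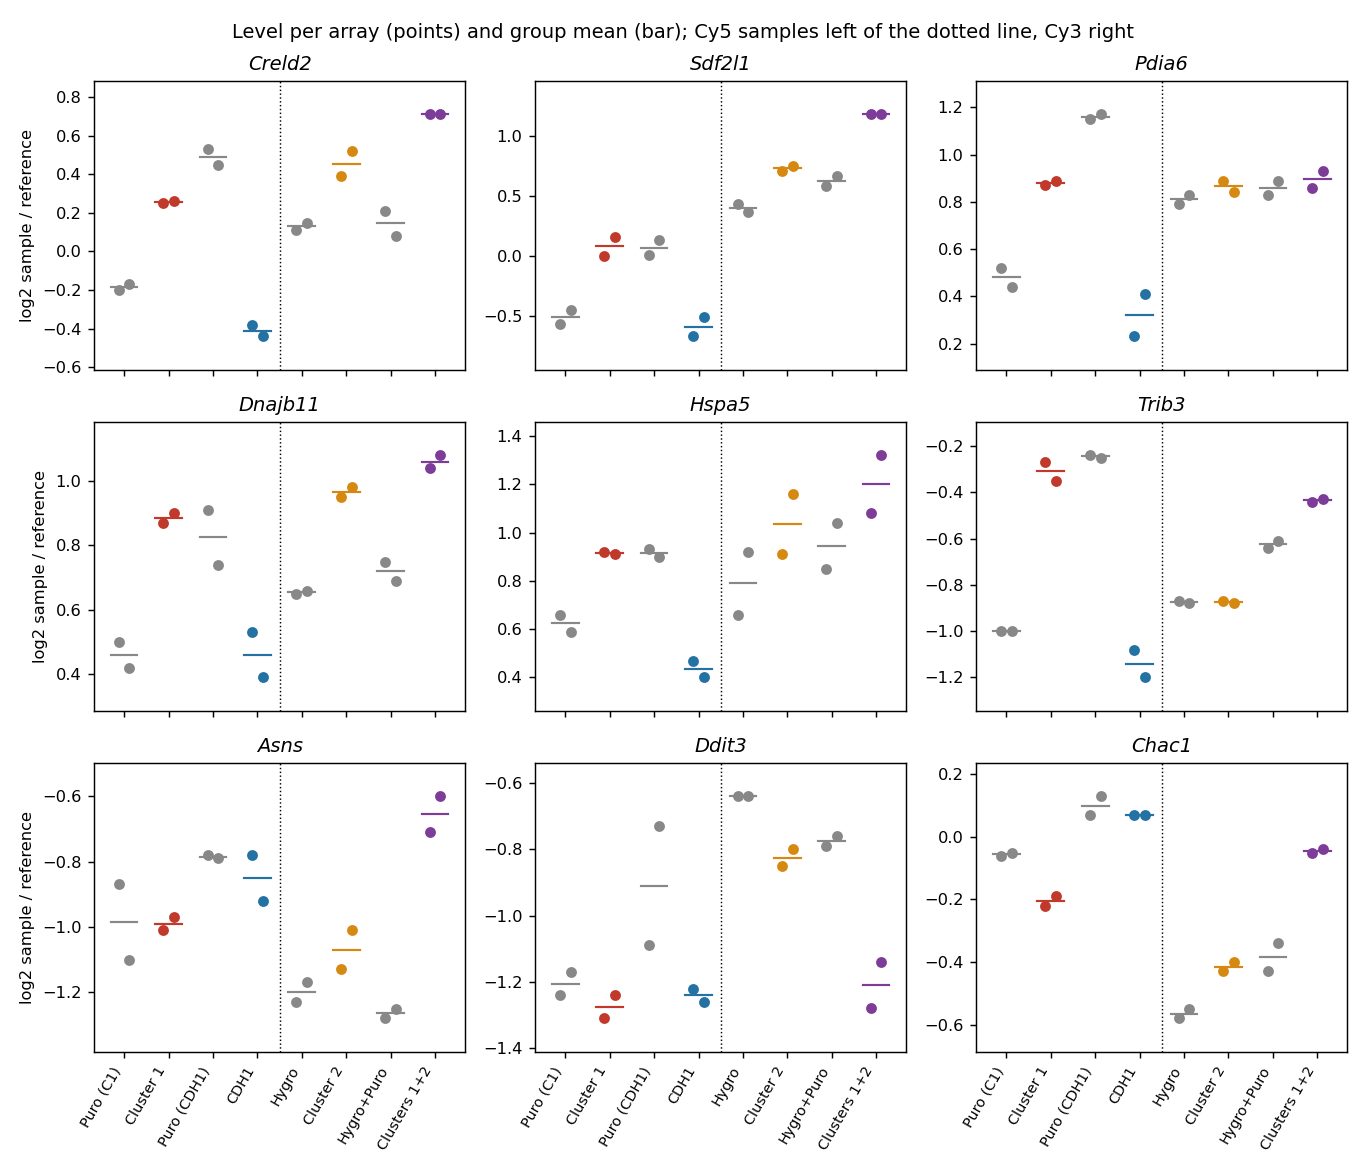
Level of 9 members on each array as log2 of sample over reference (points), with the group mean (short bar); grey points are vector controls, C1 stands for Cluster 1, and the dotted line parts Cy5 from Cy3 samples. For Creld2, Sdf2l1, Pdia6, Dnajb11 and Trib3 the Puro vector for Cluster 1 and CDH1 lie low together while Cluster 1 and the Puro vector for CDH1 lie high, and Asns is highest in Clusters 1+2 at -0.71 and -0.60.

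With CDH1 most of the chaperones and some members of every other role were called lower. Against its own Puro vector, 19 of 35 members fell and 1 rose (57.1% called), where limma called 14.5% of all genes, 7.67% higher and 6.78% lower. The falls took in 10 of 14 chaperones, 3 of 7 degradation genes, 3 of 5 sensors and factors and 3 of 9 ATF4 targets. Arrays did not overlap in 28 of the 33 members with all values, against 54.3% of all genes. The median was -0.34 over the members and 0.01 over all genes. Against the other Puro vector limma called 1 member lower and 0 higher, where 2.42% of all genes were called. Those values are given further on.

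Creld2, Pdia6 and Sdf2l1 fell most among the chaperones. Creld2 stood at 0.53 and 0.45 in the Puro vector for CDH1 and -0.38 and -0.44 in CDH1 (-0.90 ± 0.070, adjusted p = 4.11e-06), 1.87-fold lower. Pdia6 stood at 1.15 and 1.17 and 0.23 and 0.41 (-0.84 ± 0.071, adjusted p = 8.17e-06). Sdf2l1 stood at 0.01 and 0.13 and -0.67 and -0.51 (-0.66 ± 0.083, adjusted p = 0.0002). All 3 kept the call under all 13 alternatives, and no CDH1 array reached a control array. Hspa5 fell from 0.93 and 0.90 to 0.47 and 0.40 (-0.48 ± 0.11, adjusted p = 0.0118). Pdia3, which folds glycoproteins with calnexin, fell from 1.02 and 0.86 to 0.45 and 0.56 (-0.43 ± 0.076, adjusted p = 0.00206). Dnajb9, a co-chaperone that restrains IRE1, fell from -0.54 and -0.63 to -0.99 and -1.03 (-0.43 ± 0.11, adjusted p = 0.0243). These 3 changes were nearly alike in size, and the calls were kept in 9, 12 and 6 of 13 alternatives.

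Smaller falls were seen in 4 more chaperones. Manf stood at 0.82 and 0.85 in the vector and 0.40 and 0.43 in CDH1 (-0.42 ± 0.068, adjusted p = 0.00116). Dnajb11 stood at 0.91 and 0.74 and 0.53 and 0.39 (-0.37 ± 0.075, adjusted p = 0.00498). Hyou1 stood at 0.60 and 0.42 and 0.25 and 0.22 (-0.28 ± 0.080, adjusted p = 0.0338). The vector and CDH1 arrays were apart in each, with the narrowest gap for Hyou1, whose call was kept in 6 of 13 alternatives. Canx, the membrane lectin chaperone, stood at 0.08 and 0.14 and -0.10 and -0.19 (-0.25 ± 0.072, adjusted p = 0.0337), a call kept in 2 of 13 alternatives; with median centring its difference was 0.03. Calr, the soluble relative of Canx, pointed the other way without a call, at 0.62 and 0.47 and 0.79 and 0.77 (0.23 ± 0.096, adjusted p = 0.143).

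Herpud1, which gathers the degradation complex, had a value on 1 array of the Puro vector for CDH1, 0.22, and stood at -0.20 and -0.37 in CDH1 (-0.51 ± 0.094, adjusted p = 0.00343). Edem1 also rested on 1 control array, -0.51, against -0.91 and -0.87 (-0.39 ± 0.086, adjusted p = 0.0105). Repeat A had been marked by the scanner software for both, and the array that remained is the dim repeat B. Derl1 stood at 0.30 and 0.26 and -0.16 and -0.12 (-0.42 ± 0.067, adjusted p = 0.000995), and Derl2 at 0.40 and 0.45 and 0.44 and 0.38 was not called (-0.02 ± 0.081, adjusted p = 0.94). The related channel genes thus gave unlike values; the difference between them was not tested.

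Of the transcription factors Atf4 stood at -0.63 and -0.51 and -0.95 and -1.03 (-0.42 ± 0.10, adjusted p = 0.0173), Xbp1 at -0.63 and -0.80 and -1.09 and -1.16 (-0.41 ± 0.12, adjusted p = 0.034) and Atf6 at -0.72 and -0.55 and -0.93 and -0.92 (-0.29 ± 0.077, adjusted p = 0.0219), and all 3 fell. They kept the call in 7, 4 and 5 of 13 alternatives, and with median centring, where none was called, they came to 0.00, -0.23 and -0.10. Eif2ak3 overlapped between the groups at -0.06 and Ern1 was at -0.31, neither called.

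The ATF4 targets were divided. Trib3 fell as far as Creld2, from -0.24 and -0.25 to -1.08 and -1.20 (-0.90 ± 0.063, adjusted p = 2.19e-06), and kept the call in all 13 alternatives. Sesn2, a stress protein that holds back mTORC1, fell from -1.38 and -1.38 to -2.07 and -1.98 (-0.64 ± 0.090, adjusted p = 0.000567). Ddit3 fell from -1.09 and -0.73 to -1.22 and -1.26 (-0.33 ± 0.097, adjusted p = 0.039), with vector arrays that lay far apart; without the dim repeat B of that vector it came to -0.15 (adjusted p = 0.333), and the call was kept in 4 of 13 alternatives. Psat1 rose, from -0.07 and -0.11 to 0.21 and 0.08 (0.23 ± 0.070, adjusted p = 0.0417), kept in 5 of 13. The enzyme genes Asns, Phgdh and Shmt2 lay between -0.06 and 0.01 and were not called. The class median was -0.06, or 0.16 with median centring, against -0.39 and -0.19 for the chaperones.

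In all, the count of 20 was 9 with marked spots kept and 8 with median centring (6 lower and 2 higher), which moved the median of all genes to 0.11. It was 10 without repeat B of the Puro vector for CDH1, the dim array, with all 10 lower. Without repeat A or B of CDH1 it was 11 or 10.

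**Figure D3:**
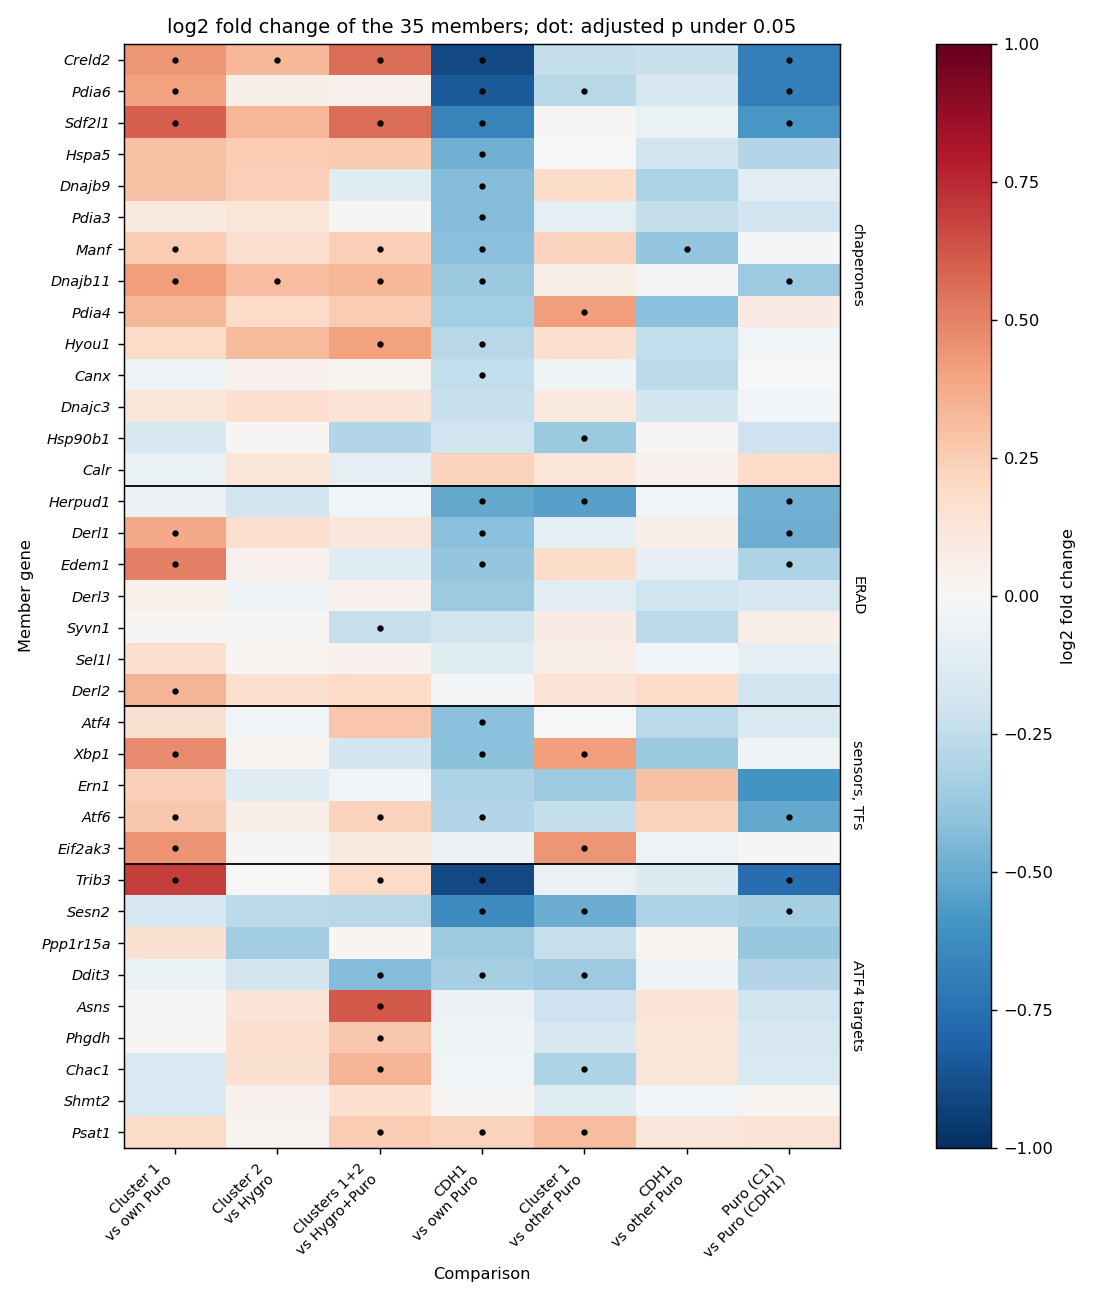
log2 fold change of each of the 35 members (rows, grouped by role) in 7 comparisons (columns), from blue (lower) to red (higher), with a dot where the adjusted p was under 0.05; Puro (C1) is the Puro vector for Cluster 1. The CDH1 column against its own vector is blue for most rows, with 19 lower calls, and that against the other Puro vector holds 1 dot.

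The rises with Cluster 1 and the falls with CDH1 depended on which Puro vector served as control. Set against the Puro vector for CDH1, Cluster 1 had 4 members higher and 6 lower, where 8.60% of all genes were called, 4.78% higher and 3.83% lower. Its arrays did not overlap those of that vector in 25 of the 33 members with all values, against 48.8% of all genes. Set against the Puro vector for Cluster 1, CDH1 had 0 members higher and 1 lower by limma, where 2.42% of all genes were called, 1.26% higher and 1.15% lower; at an unadjusted p under 0.05 there were 2 higher and 13 lower. Arrays did not overlap in 23 of 34 members, against 46.4% of all genes. These groups lay on different slides, so group and slide cannot be told apart, and all these comparisons share control arrays.

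Xbp1 and Eif2ak3 were called higher with Cluster 1 against both Puro vectors. Xbp1 differed by 0.47 ± 0.12, adjusted p = 0.0294 against its own control and 0.42 ± 0.12, adjusted p = 0.043 against the other. Eif2ak3 likewise differed by 0.45 and 0.44 ± 0.10, adjusted p = 0.021. Against the own and the other vector, Xbp1 kept its call in 8 and 6 of 13 alternatives and Eif2ak3 in 9 and 8. With marked spots kept, neither gene was called against either vector. Pdia6 was the one that turned, from 0.40 to -0.28 ± 0.071, adjusted p = 0.0283. Sdf2l1 came to 0.01 ± 0.083, adjusted p = 0.97 and Trib3 to -0.07 ± 0.063, adjusted p = 0.655, neither of them called. Pdia4 and Psat1 were called higher against the other vector alone (0.42 ± 0.11, adjusted p = 0.0306 and 0.31 ± 0.070, adjusted p = 0.0144), and Herpud1 (1 control array), Sesn2, Hsp90b1, Ddit3 and Chac1 were called lower with it, at -0.54, -0.50, -0.37, -0.36 and -0.31. Without the dim repeat B of that vector Hsp90b1 and Ddit3 came to -0.22 and -0.18. The count of 10 fell to 1 without that array, to 2 or 3 without Cluster 1 repeat A or B, to 1 with marked spots kept, to 5 without the filter, to 6 with the mean over probes and to 2 with the replicate block.

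The member called lower with CDH1 against the other Puro vector was Manf. At 0.76 and 0.86 in the Puro vector for Cluster 1 against 0.40 and 0.43 in CDH1, it differed by -0.39 ± 0.068, adjusted p = 0.00969. Its levels in both Puro controls were nearly alike, 0.76 and 0.86 and 0.82 and 0.85. Pdia4 and Xbp1, with -0.42 ± 0.11, adjusted p = 0.0647 and -0.37 ± 0.12, adjusted p = 0.144, were not called. Creld2 differed by -0.22 ± 0.070, adjusted p = 0.132 and Trib3 by -0.14 ± 0.063, adjusted p = 0.318. The 1 call was lost with marked spots kept, median centring or the replicate block, and without CDH1 repeat A or B or repeat B of the Puro vector for Cluster 1; with scaled spread or the slide as a block there were 2.

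The Puro controls themselves differed. In the Puro vector for Cluster 1, 10 members were lower than in the Puro vector for CDH1 and 0 higher by limma, where 10.0% of all genes were called, 4.86% higher and 5.15% lower; at an unadjusted p under 0.05, 18 were lower and 0 higher. Arrays did not overlap in 21 of 32 members, against 50.4% of all genes. Trib3 differed by -0.76 ± 0.063, adjusted p = 1.31e-05, Creld2 by -0.68 ± 0.070, adjusted p = 5.93e-05, Pdia6 by -0.68 ± 0.071, adjusted p = 6.83e-05 and Sdf2l1 by -0.58 ± 0.083, adjusted p = 0.000711. Atf6, Derl1, Herpud1, Dnajb11, Sesn2 and Edem1 were lower, at -0.51, -0.49, -0.48, -0.36, -0.33 and -0.31. The values of Herpud1 and Edem1 rest on 1 array of the vector for CDH1. Manf, Xbp1, Hyou1, Canx and Eif2ak3 differed between the controls by no more than -0.04 in size, with no call. With marked spots kept 3 members were called.

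**Figure D4:**
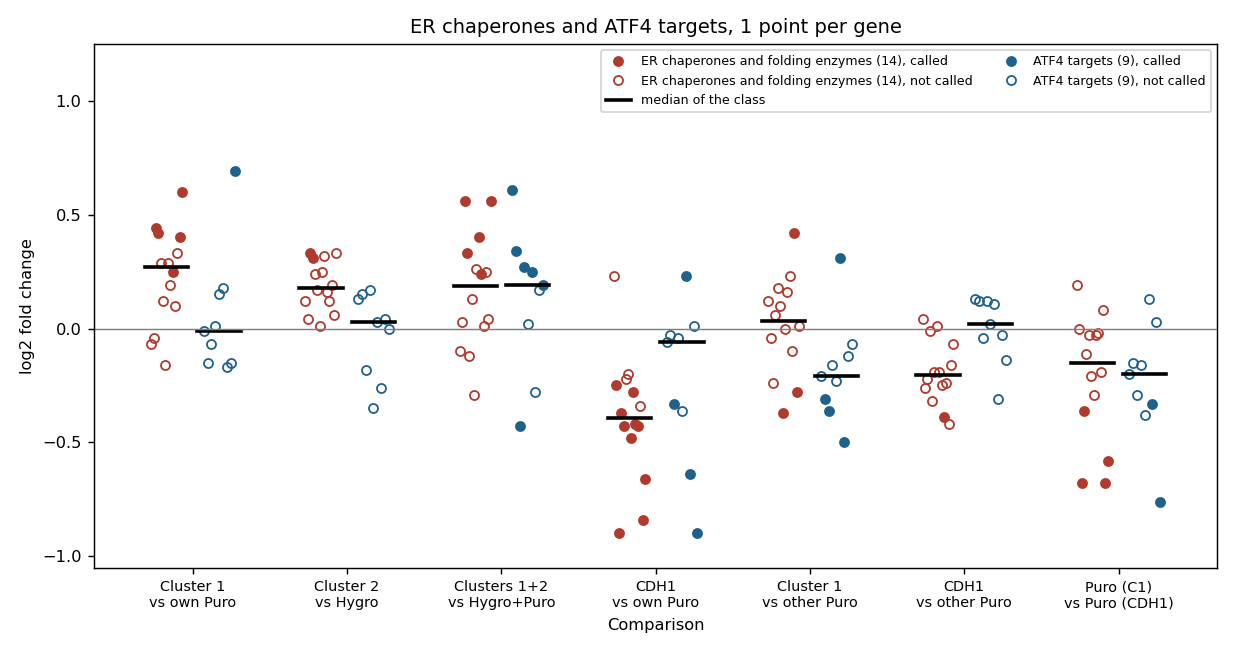
log2 fold change of each chaperone (red) and ATF4 target (blue) in 7 comparisons; filled points are called at an adjusted p under 0.05, open points are not, and black bars are class medians. The chaperone median runs from 0.27 for Cluster 1 to -0.39 for CDH1 against their own vectors, and the bars of the classes meet at 0.18 and 0.19 in Clusters 1+2.

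Chaperones and ATF4 targets can be set side by side over these comparisons, as counts and medians with no test of the classes. With Cluster 1, 5 of 14 chaperones and 1 of 9 ATF4 targets rose, with medians of 0.27 and -0.01. With Cluster 2 it was 2 and 0, with 0.18 and 0.03. With Clusters 1+2 it was 5 and 5, with 1 target lower and medians of 0.18 and 0.19. With CDH1, 10 chaperones and 3 targets fell and 1 target rose. Against the Puro vector for CDH1, Cluster 1 had 1 chaperone and 1 target higher and 2 chaperones and 3 targets lower, and the medians were 0.04 and -0.21. Against the Puro vector for Cluster 1, those of CDH1 were -0.21 and 0.02, the latter -0.07 with marked spots kept.

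Called chaperones were found with and without ERSE in the window. With CDH1, 4 of 7 chaperones with ERSE in the window fell (median -0.25), as did 4 of 5 without it (-0.43). With Cluster 1 it was 2 of 7 and 2 of 5 higher. Dnajb11, called in both comparisons, was counted without ERSE but holds ERSE-II. Hyou1 and Manf had no window and were not counted. The 3 ATF4 targets with CARE in the window, Asns, Chac1 and Trib3, all rose with Clusters 1+2, and of the 6 without it 2 rose and 1 fell. These counts are small and were not tested.

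Of the 35 members 26 were called in at least 1 comparison with the own vector, as were 33.9% of the 18900 genes tested in all 4. Of the members 10 both rose with Cluster 1 and fell with CDH1, as did 2.17% of those genes. Creld2 and Dnajb11 were called in all 4, higher with each microRNA group and lower with CDH1. All 10 members lower in the Puro vector for Cluster 1 than in that for CDH1 fell with CDH1. Of these, 8 rose with Cluster 1. Against the other Puro vector, 2 of the 12 Cluster 1 rises were called higher, 1 lower and 9 not called. Of the 19 CDH1 falls, 1 was called lower there and 18 were not called, with 17 values negative. The overlaps that involve the difference between the Puro vectors, or the other Puro vector, are between comparisons that share arrays. Agreement in them is thus partly built in, and their shares over all genes were not counted. The 9 members with no call against an own vector were Hsp90b1, Calr, Dnajc3, Pdia4, Derl3, Sel1l, Ern1, Ppp1r15a and Shmt2. Hsp90b1, the ER form of HSP90, stood at 0.31 and 0.44 under both vectors and at 0.06 and 0.11 under both clusters (-0.29 ± 0.10, adjusted p = 0.0571). Pdia4 stood at -0.55 and -0.75 in the vector for CDH1 and -0.95 and -1.03 in CDH1 (-0.34 ± 0.11, adjusted p = 0.0549). Both lay just outside the threshold. Derl3 had the widest SE of the degradation genes, and it was not well above background on 5 arrays. Ppp1r15a (GADD34), which undoes eIF2alpha phosphorylation, ran between -0.36 with CDH1 and 0.15 with Cluster 1 against the own vectors.

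Probes of 1 gene disagreed in several cases. The 4 Pdia6 probes gave -0.84, -0.52, -0.42 and -0.25 with CDH1 and 0.40, 0.17, 0.15 and 0.00 with Cluster 1, the first being the one used. The other Trib3 probe gave 0.28 with Cluster 1, 0.32 with Clusters 1+2 and -0.60 with CDH1. The other Sesn2 probe gave -0.01 with CDH1, where the one used gave -0.64. For Atf6 the other probe gave 0.08 with CDH1, against -0.29. For Edem1 the others gave -0.08 and 0.00 with CDH1, and 0.44 and -0.07 with Cluster 1. With Clusters 1+2 the Pdia6 probes, in the same order, gave 0.04, 0.23, 0.15 and -0.21. For Dnajb9 the others gave -0.17 and 0.07 with CDH1, against -0.43, and for Derl2 the other gave 0.02 with Cluster 1, against 0.34. In all of these the size of a change, and in some its direction, depended on the probe.

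Other genes of the pathway were counted in lists of the same kind. Of 40 other ER folding and degradation genes, 7 rose and 1 fell with Cluster 1 (39 tested), 0 and 1 with Cluster 2, 8 and 7 with Clusters 1+2, and 2 and 9 with CDH1. For this list and the 3 that follow, the shares of all genes called in these comparisons are the 8.24%, 2.85%, 24.9% and 14.5% given above. Against the other Puro vector, 1 rose and 4 fell with Cluster 1, and limma called 0 with CDH1, with 3 higher and 7 lower at an unadjusted p under 0.05; there 8.60% and 2.42% of all genes were called. With Cluster 1 Txndc11 rose by 0.52 ± 0.074 (adjusted p = 0.000955, limma) and Ero1b, of ER disulfide formation, by 0.52 ± 0.073 (adjusted p = 0.000919). Pdia5, a disulfide isomerase, rose there by 0.48 ± 0.067 (adjusted p = 0.000751). With Cluster 2 Pdia5 fell (-0.28 ± 0.067, adjusted p = 0.0444). With Clusters 1+2 Fkbp14, a prolyl isomerase of the ER, differed by -0.95 ± 0.096, adjusted p = 1.05e-05, Uggt1, which senses misfolded glycoproteins, by -0.88 ± 0.092, adjusted p = 1.47e-05, and Ssr1, of the translocon, by 0.77 ± 0.080, adjusted p = 2.31e-05. With CDH1 Sil1, the nucleotide exchange factor of BiP, differed by -0.61 ± 0.067, adjusted p = 6.5e-05, and the ubiquitin ligase Rnf139 by 0.41 ± 0.11, adjusted p = 0.0249.

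Of 41 other genes of the amino acid response, 4 rose and 1 fell with Cluster 1, 1 and 1 with Cluster 2, 12 and 6 with Clusters 1+2, and 2 and 8 with CDH1. Against the other Puro vector, 1 rose and 4 fell with Cluster 1, and 0 rose and 3 fell with CDH1 by limma. The stress factor Nupr1 was called in all 4: 0.69 ± 0.082, adjusted p = 0.000261 with Cluster 1, 0.61 ± 0.082, adjusted p = 0.00111 with Cluster 2, 1.00 ± 0.082, adjusted p = 1.7e-06 with Clusters 1+2, and -0.71 ± 0.082, adjusted p = 0.000104 with CDH1. With Cluster 1 the amino acid transporter Slc7a5 and the factor Cebpb rose by 0.41 ± 0.099, adjusted p = 0.0262 and 0.40 ± 0.087, adjusted p = 0.0132. The glycine transporter Slc6a9 fell with Cluster 2 (-0.37 ± 0.075, adjusted p = 0.0186) and with Clusters 1+2 (-0.99 ± 0.075, adjusted p = 8.38e-07), where Atf5, a factor downstream of ATF4, also fell (-0.99 ± 0.099, adjusted p = 9.72e-06). With CDH1 the largest falls were in Ddit4, an inhibitor of mTORC1 (-1.41 ± 0.19, adjusted p = 0.000302), Atf5 (-0.98 ± 0.099, adjusted p = 3.44e-05) and Cebpb (-0.82 ± 0.087, adjusted p = 5.06e-05).

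Of 18 upstream kinases, proteases and regulators, 3 rose and 2 fell with Cluster 1, 1 and 5 with Clusters 1+2, and 1 and 5 with CDH1; with Cluster 2 limma called 0, with 0 higher and 2 lower at an unadjusted p under 0.05. Against the other Puro vector limma called 0 higher and 1 lower in each of Cluster 1 and CDH1. The ER membrane protein Tmbim6 differed by 0.62 ± 0.099, adjusted p = 0.00242 with Cluster 1 and -0.81 ± 0.099, adjusted p = 0.000225 with CDH1, and Impact, which restrains GCN2, by -0.48 ± 0.12, adjusted p = 0.0289 with Cluster 1, -0.79 ± 0.12, adjusted p = 0.000358 with Clusters 1+2 and 0.89 ± 0.12, adjusted p = 0.000333 with CDH1. Creb3l2, an ATF6 relative, fell with Clusters 1+2 (-0.93 ± 0.087, adjusted p = 5.72e-06), and the death gene Bcl2l11 with both Clusters 1+2 (-0.57 ± 0.075, adjusted p = 0.000104) and CDH1 (-0.53 ± 0.075, adjusted p = 0.000429). Wfs1 rose with Cluster 1 (0.39 ± 0.087, adjusted p = 0.0186).

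Heat shock genes of the cytosol and mitochondria, were read as a comparison. With Cluster 1, 6 of 14 fell and 0 rose by limma, among them Hspd1 (-0.70 ± 0.093, adjusted p = 0.000577), Hspb1 (-0.53 ± 0.085, adjusted p = 0.00218) and Hspe1 (-0.52 ± 0.090, adjusted p = 0.00326). Against the other Puro vector, 1 rose and 3 fell with Cluster 1 and 2 fell with CDH1. Between the Puro vectors 3 were higher and 1 lower in that for Cluster 1, where 4.86% and 5.15% of all genes were. With Cluster 2 limma called 0 of 14, with 1 higher and 0 lower at an unadjusted p under 0.05. With Clusters 1+2, 4 of 13 rose, the largest being Hspd1 (0.31 ± 0.093, adjusted p = 0.027), Hspa4 (0.29 ± 0.083, adjusted p = 0.0201) and Hspe1 (0.28 ± 0.090, adjusted p = 0.0352). With CDH1 4 rose and 3 fell, with Hspb1 at -1.03 ± 0.085, adjusted p = 7.14e-06, Dnajb1 at 0.50 ± 0.089, adjusted p = 0.00272 and Hspa8 at -0.36 ± 0.091, adjusted p = 0.024.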

How the data were processed

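Gene expression was measured in 16 samples on Agilent 2-colour arrays. Per the file headers, Feature Extraction 9.5.3.1 gave each deposited spot an intensity (mean signal and local background median) for the green and the red channel, and probe positions follow build mm7. The authors' deposited series matrix holds 1 ratio per spot. On all 16 arrays it equalled the processed sample signal divided by that of the reference, which settles its direction and scale; no further centring was detectable. All its columns were matched to samples, with 0 left over.

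Spots that the scanner software had marked as non-uniform or outliers were first set missing. Background was corrected with normexp (offset 50), followed by loess within arrays, in which control spots had weight 0 (R 4.3.3 with limma 3.58.1). Spots of a probe were averaged. Probes had to be well above background, in the channel of the sample, on each array of some group (27090 passed); the brightest stood for its gene. Of 41174 probes, 22951 took their gene from an accession in the RefSeq table, 6659 from a present symbol and 3109 from an older one; 8455 kept the name in the file. One limma fit (lmFit, eBayes) with 8 group means covered all 16 arrays, with two-sided tests and Benjamini-Hochberg adjustment over all genes. The number of arrays, 2 per group, limits the precision. Promoter windows were searched in Python (pandas 2.3.3).

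Each overexpression was compared with its own vector, Cluster 1 and CDH1 also with the other Puro vector, the Puro vectors with each other, and the changes of Clusters 1+2 and Cluster 2 with each other. Repeat letters were not taken as pairs, though in the Cy3 groups they coincide with the slide, which was tried as a block. Alternatives were processed signals, offset 10, marked spots kept, median centring, scaled spread, no filter, the mean over probes, a replicate block, a slide block and leaving out each array. Named were the 35 members and, of each further list, up to 3 called genes with the largest absolute change per comparison with the own vector; 1 gene that this rule names is not reported here. The members, the lists and the removal of marked spots were chosen with earlier results of these data known.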

Additional observations from a re-analysis of the deposited data

Results flagged for a closer look

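Asns, the asparagine synthetase gene, differed between the microRNA groups: its log2 change in Clusters 1+2 (0.61) exceeded that in Cluster 2 alone (0.13) by 0.48 ± 0.12 (SE, adjusted p = 0.0347, limma interaction over 8 arrays), and both Clusters 1+2 arrays lay above all 6 other arrays of that dye orientation. The call was kept in 4 of 17 alternatives, and with median centring the difference was 0.17 (adjusted p = 0.536, limma). Asns was 1 of 35 members called, where 6.24% of all genes were.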

How the results depend on the processing

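Over the 69 calls of a member in a comparison, 12 held under all alternatives that could be fitted, and 1 changed sign, Canx in CDH1 at 0.035 with median centring. Sdf2l1 held in Cluster 1; Creld2, Sdf2l1, Chac1 and Asns in Clusters 1+2; Pdia6, Creld2, Sdf2l1 and Trib3 in CDH1; and Pdia6, Creld2 and Sdf2l1 between the Puro vectors. The median of the ATF4 targets in Clusters 1+2 minus Cluster 2 went from 0.19 to -0.12 with median centring. Below, counts of called members are given first for Cluster 1, next for Cluster 2, then for both clusters and for CDH1, each against its own vector, then for Cluster 1 and for CDH1 against the other Puro vector, for the Puro vectors, and for Clusters 1+2 minus Cluster 2; the reported counts are 12, 2, 13, 20, 10, 1, 10 and 1. With marked spots kept they were 1, 0, 5, 9, 1, 0, 3 and 0. With median centring they were 12, 17, 8, 8, 7, 0, 7 and 5. With scaled spread they were 13, 0, 4, 17, 12, 2, 12 and 0. With the processed signals they were 12, 0, 7, 15, 8, 1, 11 and 0, with offset 10 11, 0, 10, 16, 9, 1, 9 and 0, and without the filter 9, 0, 9, 15, 5, 1, 8 and 0. With the mean over probes they were 9, 3, 13, 15, 6, 1, 8 and 1, and with the slide as a block 14, 4, 14, 21, 10, 2, 12 and 1. With the replicate block they were 11, 2, 13, 19, 2, 0, 7 and 1; same-lettered arrays deviated together at 0.27 and 0.33 in the Cy3 comparisons, where the letter is also the slide, and at -0.01 and 0.01 in the Cy5 ones, which each lay on 1 slide. Leaving out 1 array gave ranges of 7 to 10, 0 to 1, 6 to 12, 10 to 14, 1 to 9, 0 to 1, 7 to 10 and 0 to 1; fewer arrays go into these fits. The cause of the other shifts was not tested. Median centring moved the median of all genes by over 0.1 in Cluster 2 (0.14), CDH1 (0.11) and Clusters 1+2 minus Cluster 2 (-0.17). It raised the share of higher calls over all genes from 58.7% to 69.3%, 62.6% to 93.4%, 53.1% to 82.7%, 55.5% to 77.5%, 52.3% to 80.0% and 48.6% to 65.6% in Cluster 1, Cluster 2, CDH1, both comparisons with the other Puro vector and the Puro vectors, and lowered it from 48.8% to 39.3% in Clusters 1+2 and from 46.4% to 13.1% in the last comparison. With scaled spread that share was 89.3% in Cluster 2, and with the processed signals 33.5% in the last. Repeat B of the Puro vector for CDH1, with the fewest spots above background, limits the comparisons that use it.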
